A study of Mus musculus with 3 samples.

Results

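The nuclear genes for the subunits of the mitochondrial respiratory chain and ATP synthase, with a few factors that assemble them, were followed here in sorted dendritic cells (DCs) of the mouse spleen. Members were taken by symbol: every gene starting with Nduf (complex I), Sdha to Sdhd (complex II), Uqcr (complex III), Cox4 to Cox8 (complex IV) or Atp5 (complex V) that had a probe set of its own. They came to 93 of the 19938 genes with such a probe set, measured by 119 probe sets. Complex I had 41 of them, complex II had 8, complex III had 8, complex IV had 19 and complex V had 17. Values were read on Affymetrix Mouse Gene 1.0 ST arrays and are on a log2 scale, so a difference of 1 is a 2-fold difference.

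The respiratory chain carries electrons from NADH (complex I) and succinate (complex II) through ubiquinone, complex III and cytochrome c to oxygen at complex IV. Complexes I, III and IV pump protons out of the mitochondrial matrix, and ATP synthase, complex V, uses the returning protons to make ATP. Most subunits are encoded in the nucleus and a small set in mitochondrial DNA. In dendritic cells the chain is known as a main source of ATP in the resting state, and activated cells are known for leaning more on glycolysis.

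Each of the 3 groups had 1 array, made from sorted CD11c(high) CD11b+ cells of 2 to 3 pooled spleens. The first group was Esam(hi) GFP(lo) cells and the second Esam(lo) GFP(hi) cells, both of control littermates with floxed Rbpj and no Cre. The third group was Esam(lo) GFP(hi) cells of RBPJflox/flox CD11c-Cre mice, called RBPJ-null in the labels. RBPJ is the DNA-binding partner of Notch receptors, CD11c-Cre is active in DCs and in part of the other CD11c-expressing cells, and every mouse carried the Cx3cr1-GFP reporter. Below, 3 values given together for a gene stand in the order of these groups: Esam(hi) control, Esam(lo) control, RBPJ-null. Esam, the surface protein of the sort, read 7.79, 6.57 and 6.12 and was above background in the first group only. Rbpj read 9.85, 9.85 and 10.04. Its probe set therefore does not check the RBPJ-null label, and that array is called by its label throughout. All 10 DC genes looked up (among them Itgax, Itgam, Flt3, Zbtb46 and H2-Ab1) were above background on every array.

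With 1 array per group no difference below has a replicate check, an error between animals or a p-value, and the words higher and lower compare arrays. Background on an array was set from 1194 genes of smell and pheromone receptors, at their 95th percentile, which gave 7.17, 6.76 and 6.87. A gene entered a comparison if it was above background on at least 1 of its 2 arrays. It was counted as 2-fold apart if its values differed by 1 or more with the brighter one above background. Of the 93 genes, 79 were above background on at least 1 array and 72 on all 3. The other 14 were on none: Cox6b2, Cox7a1, Cox7b2, Cox8b, Cox8c, Ndufa1, Ndufa4l2, Ndufa5, Ndufaf2, Ndufaf5, Ndufaf6, Ndufb2, Ndufs5 and Sdhaf4. They take no part in the counts below. In a sorted population, fewer cells of a type and less RNA per cell cannot be told apart.

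On the control arrays, respiratory chain genes read lower in Esam(hi) than in Esam(lo) cells, and they did so in all 5 complexes. Of 79 genes, 65 were lower in Esam(hi) cells, 11 were equal to 5 decimal places and 3 were higher. Most genes of the arrays went the same way: of 9668, 6546 were lower, 1312 equal and 1810 higher. The median difference, Esam(hi) minus Esam(lo), was -0.77. The largest differences with both values above background were -1.64 (Atp5md) and 0.65 (Cox6a2), while Ndufb6 and Ndufb5 were below background in Esam(hi) cells and have only a bound. At least 2-fold lower were 26 of the 79 (32.9%) and at least 2-fold higher were 0. Among all 9668 genes in this comparison, 11.0% were at least 2-fold lower and 0.776% at least 2-fold higher, with a median of -0.28. With the trend of the difference on level removed by a lowess curve, 4 respiratory chain genes were at least 2-fold lower and 1 was higher, against 26 and 0 on the deposited values. Among all genes 3.88% and 1.95% were that far apart with the trend removed, so these counts lie near the share of all genes.

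The comparison with genes of like level is needed because the difference between the control arrays depends on how bright a gene is. Genes near background centred on 0, and brighter genes centred below it. Each gene was therefore set beside the 500 other genes nearest to it in mean level over the 3 arrays. After the median of those neighbours was subtracted, the median of the respiratory chain genes was -0.32. Below their neighbours were 57 genes. Below the 10th percentile of their neighbours were 18 genes, and 2 were above the 90th. Of all 9668 genes, 4685 were below their neighbours, 989 below the 10th percentile and 957 above the 90th. Only Ndufb6, Ndufb5, Atp5md and Uqcrb were at least 2-fold below genes of like level, and Cox6a2 alone was at least 2-fold above them. In the comparison as a whole, 387 genes (4.00%) were that far below and 182 (1.88%) that far above, so 4 and 1 of 79 are near those shares. In the band of levels that holds the middle part of the members, from 8.07 to 9.68, 12 of 39 respiratory chain genes were at least 2-fold lower with a median of -0.79. In the same band 15.0% of 3887 other genes were at least 2-fold lower and 0.720% at least 2-fold higher, with a median of -0.47.

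**Figure D1:**
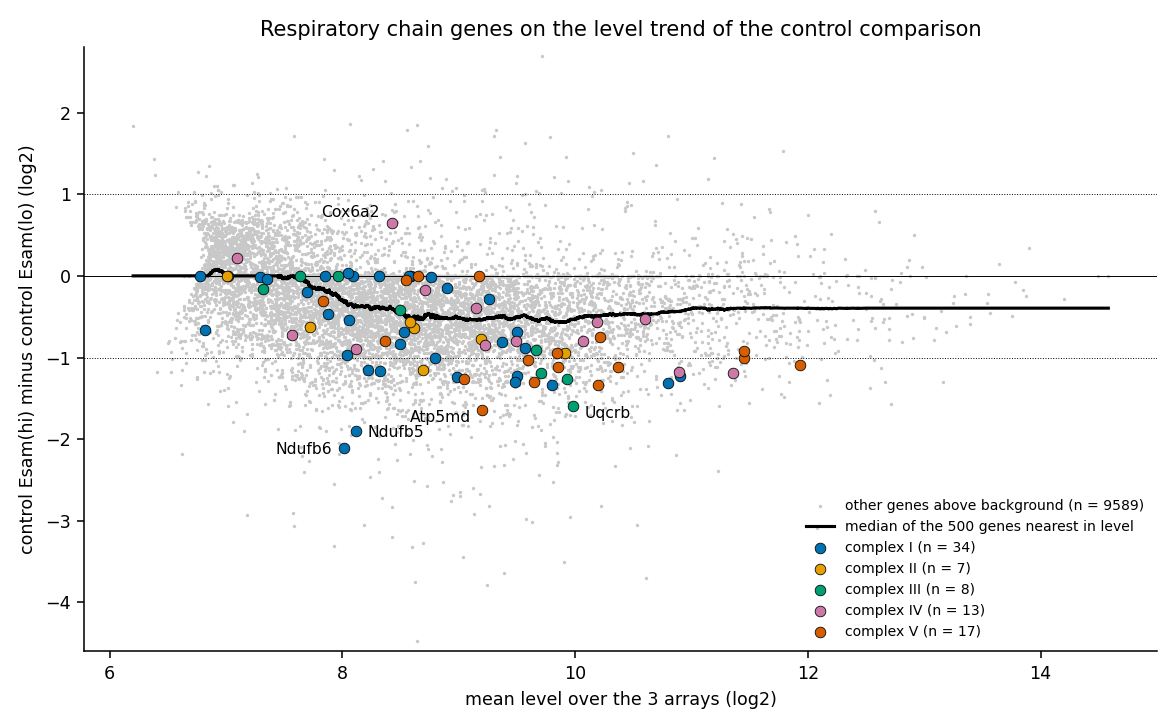
Difference between the control arrays (Esam(hi) minus Esam(lo), log2, vertical axis) against the mean log2 level over the 3 arrays (horizontal axis); grey points are other genes above background, coloured points the 79 respiratory chain genes by complex, the black line the median of the 500 nearest genes, and dotted lines mark 2-fold. Most coloured points lie below the black line, with Cox6a2 highest at 0.65 and Ndufb6 and Ndufb5, below background in Esam(hi) cells, plotted at their deposited values, and a row of them lies at 0.

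The genes did not spread evenly around their median. At -0.5 or lower were 51 of 79 (64.6%), against 35.8% of all genes and 47.7% of other genes in the band of levels from 8.07 to 9.68. The shares of the members cover all their levels, while that band holds 39 of them, so the band is not matched to the members in level. Between -0.5 and -0.2 were 5 genes (6.33%), against 18.9% of all genes and 22.4% of that band. Within 0.2 of 0 were 21 genes (26.6%), against 32.7% of all genes and 24.9% of the band. Equal values on both control arrays were seen for 13.9% of the respiratory chain genes and for 13.6% of all genes, so ties were as frequent in one as in the other. The sign of the smaller differences hung on the scaling. Under the deposited values, median centring, quantile normalization and removal of the level trend, 54 of the 79 genes were lower in every case, 2 were higher in every case and 19 took both signs. The other 4 were at or next to 0 under at least 1 of these scalings and lower under the rest.

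The promoters of genes from both sides of this split were read from RefSeq (build GRCm38.p6), as 300 bases from 250 before to 50 after the annotated start. A window was found for 77 of the 93 genes. The capitals below mark matches, on either strand, to GCATGCGC, the core of the site of NRF1, and to CCGGAAG, a site of ETS factors such as GABP. NRF1 and GABP are regulators long known for driving nuclear genes of mitochondrial proteins. The first 4 genes are a pair among those furthest below their neighbours (Ndufb6, Atp5md) and a pair of core genes at least 2-fold lower in Esam(hi) cells (Sdhb, Uqcrc1).
Ndufb6 (chr4:40279372-40279671, minus strand): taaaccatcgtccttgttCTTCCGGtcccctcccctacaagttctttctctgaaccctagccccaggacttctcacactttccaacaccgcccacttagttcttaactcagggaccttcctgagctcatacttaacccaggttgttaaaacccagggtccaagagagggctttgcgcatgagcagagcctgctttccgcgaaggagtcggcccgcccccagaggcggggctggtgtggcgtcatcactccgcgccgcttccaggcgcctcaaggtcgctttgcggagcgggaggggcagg
Atp5md (chr19:47090598-47090897, minus strand): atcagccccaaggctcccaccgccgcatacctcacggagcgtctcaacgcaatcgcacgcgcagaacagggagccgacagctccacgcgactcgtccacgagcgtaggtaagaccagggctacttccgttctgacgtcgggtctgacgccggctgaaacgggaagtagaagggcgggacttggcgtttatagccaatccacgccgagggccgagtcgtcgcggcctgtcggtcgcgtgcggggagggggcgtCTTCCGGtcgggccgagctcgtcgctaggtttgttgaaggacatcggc
Sdhb (chr4:140961021-140961320, plus strand): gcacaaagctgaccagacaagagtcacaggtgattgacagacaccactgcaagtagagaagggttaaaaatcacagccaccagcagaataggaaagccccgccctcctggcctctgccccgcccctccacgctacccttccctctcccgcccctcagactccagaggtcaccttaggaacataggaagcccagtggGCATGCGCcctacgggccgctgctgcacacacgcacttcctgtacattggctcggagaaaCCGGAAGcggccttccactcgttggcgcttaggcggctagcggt
Uqcrc1 (chr9:108936398-108936697, plus strand): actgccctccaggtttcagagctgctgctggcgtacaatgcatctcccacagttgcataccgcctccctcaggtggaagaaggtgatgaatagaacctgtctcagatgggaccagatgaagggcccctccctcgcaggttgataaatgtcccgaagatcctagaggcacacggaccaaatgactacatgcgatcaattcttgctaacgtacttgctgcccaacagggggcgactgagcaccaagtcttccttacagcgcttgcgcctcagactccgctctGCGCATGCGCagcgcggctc

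The next 3 genes, one each of complexes I, III and V, were equal on all 3 arrays by the probe set used and are shown for contrast. The second probe sets of Ndufa11 and Uqcr11 differed between the controls by -0.19 and -0.37, and the 6 of Atp5l by -0.12 to 0.
Ndufa11 (chr17:56717512-56717811, plus strand): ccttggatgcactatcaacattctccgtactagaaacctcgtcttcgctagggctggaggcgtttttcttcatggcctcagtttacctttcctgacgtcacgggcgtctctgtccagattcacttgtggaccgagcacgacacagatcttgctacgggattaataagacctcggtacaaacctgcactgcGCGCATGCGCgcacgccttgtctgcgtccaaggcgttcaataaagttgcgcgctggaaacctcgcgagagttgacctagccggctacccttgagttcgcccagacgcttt
Uqcr11 (chr10:80406772-80407071, minus strand): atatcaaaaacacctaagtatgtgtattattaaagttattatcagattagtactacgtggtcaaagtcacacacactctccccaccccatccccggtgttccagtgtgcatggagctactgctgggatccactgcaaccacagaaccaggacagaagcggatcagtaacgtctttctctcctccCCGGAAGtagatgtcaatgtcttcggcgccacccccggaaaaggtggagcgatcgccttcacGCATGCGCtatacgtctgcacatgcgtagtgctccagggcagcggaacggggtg
Atp5l (chr9:44920693-44920992, minus strand): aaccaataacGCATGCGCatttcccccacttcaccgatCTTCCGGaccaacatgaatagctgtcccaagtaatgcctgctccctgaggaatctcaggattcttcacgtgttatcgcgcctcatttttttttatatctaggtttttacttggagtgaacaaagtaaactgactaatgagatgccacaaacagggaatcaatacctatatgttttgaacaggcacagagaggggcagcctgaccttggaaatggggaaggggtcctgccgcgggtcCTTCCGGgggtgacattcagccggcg

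Ndufb6 and Atp5md each held the ETS letters once. Sdhb held both motifs, and Uqcrc1 held the NRF1 letters on both strands, as an overlapping palindrome, after the start. Ndufa11 held the same palindrome before the start, Uqcr11 held both motifs, and Atp5l held the NRF1 letters once and the ETS letters at 2 places. Both motifs were present on both sides of the split, but every promoter printed above holds a match, and they are not typical of the set. Only 28 of 77 genes (36.4%) held either motif, against 16.0% of protein-coding genes. Ndufb5, also far below its neighbours, held neither. Ndufa12, Ndufb3, Ndufaf3 and Uqcr10, which were equal on all 3 arrays, held neither as well. Over all windows, GCATGCGC was in 12 of 77 genes (15.6%), against 3.94% of 17486 protein-coding genes with windows of the same length. Its palindromic form, in which the letters on both strands overlap, was in 7 (9.09%), against 1.47%. CCGGAAG was in 21 (27.3%), against 13.0%. The YY1 letters AAGATGGC were in 10 (13.0%), against 3.56%, and the estrogen-related receptor letters TCAAGGTCA in 2 (2.60%), against 0.377%. These letters can overlap CpG-rich sequence, and the windows held a median of 20 CpG, against 13 in protein-coding genes. Within the respiratory chain, GCATGCGC was in 3 of 21 genes (14.3%) at least 2-fold lower in Esam(hi) cells and in 8 of 45 others above background (17.8%). CCGGAAG was in 6 of 21 (28.6%) and in 15 of 45 (33.3%). The match is a description of letters in a window and not evidence of binding in these cells.

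Complex I takes electrons from NADH. Its 34 genes above background had a median difference between the controls of -0.67, or -0.25 relative to genes of like level. Of these, 11 (32.4%) were at least 2-fold lower in Esam(hi) cells, against 11.0% of all genes. The core subunits include those that carry the flavin and iron-sulfur clusters. The 6 nuclear core subunits measured stand out from the rest by value: all were lower, with a median of -1.23, or -0.78 relative to like level. The mitochondrially encoded ND3, outside the symbol rule, was higher in Esam(hi) cells and is given further below. The 24 accessory subunits, which brace the core, had a median of -0.61, or -0.19 relative to like level. The 4 assembly factors above background had a median of -0.01.

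Ndufv2, an iron-sulfur subunit of the NADH-oxidising module, read 8.91, 10.25 and 10.25, a 2.53-fold difference between the controls. Ndufv1, the flavin-binding subunit of the same module, read 7.54, 8.69 and 8.43. Ndufs1, the largest iron-sulfur subunit, read 7.58, 8.04 and 8.02, a 1.38-fold difference between the controls. The Esam(hi) array was the lowest of the 3 for each of these core genes. Ndufs7, which carries the last iron-sulfur cluster before ubiquinone, read 9.93, 11.24 and 11.24. Ndufs8, the other cluster subunit of the ubiquinone-reducing arm, read 8.65, 9.96 and 9.83. Both were about as far apart between the controls, at 2.48-fold and 2.47-fold.

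Among accessory subunits the largest differences were in Ndufb6 and Ndufb5, parts of the membrane arm. Ndufb6 read 6.52, below background, in Esam(hi) control cells, 8.63 in their Esam(lo) counterparts and 8.90 on the RBPJ-null array. It was thus at least 2.75-fold lower in control Esam(hi) than in control Esam(lo) cells. Ndufb5 read 6.79, again below background, then 8.69 and 8.86, at least 2.88-fold lower. Ndufa6 (8.15, 9.40 and 9.40), Ndufc2 (10.08, 11.31 and 11.33), Ndufb11 (8.69, 9.91 and 9.91), Ndufa2 (7.49, 8.65 and 8.82) and Ndufb9 (8.12, 9.13 and 9.13) were between 2.37-fold and 2.01-fold lower in Esam(hi) cells. At the other end, Ndufa11, a membrane-arm subunit, read 8.59 on all 3 arrays, and the assembly factor Ndufaf3 read 8.57 on all 3. Its equal values place Ndufa11 0.52 above the median of its neighbours, but its second probe set differed between the controls by -0.19.

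Complex II is succinate dehydrogenase, which also serves the tricarboxylic acid (TCA) cycle. Its 4 subunits were all lower in Esam(hi) cells, with a median of -0.86, or -0.31 relative to like level. Sdhb, the iron-sulfur subunit, read 7.94, 9.09 and 9.05, a 2.22-fold difference between the controls. Sdha, the flavoprotein that binds succinate, read 9.27, 10.22 and 10.23. Sdhd, one of the membrane anchors, read 8.20, 8.76 and 8.76, and its difference was the one nearest to that of its neighbours (-0.04 relative to them). Of the assembly factors, Sdhaf2, which helps attach flavin to Sdha, read 7.30, 7.93 and 7.93, and Sdhaf3 read 7.01 on all 3 arrays.

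Complex III passes electrons from ubiquinol to cytochrome c. All 8 of its genes were above background, with a median of -0.66, or -0.27 relative to like level. Of these, 3 (37.5%) were at least 2-fold lower in Esam(hi) cells, against 11.0% of all genes. Uqcrb, which takes part in binding ubiquinone, read 8.83, 10.43 and 10.69, a 3.02-fold difference between the controls. Its 3 probe sets gave differences from -1.79 to -1.38, all lower. The core proteins Uqcrc1 (8.89, 10.08 and 10.14) and Uqcrc2 (9.08, 10.34 and 10.36) were 2.28-fold and 2.39-fold lower in Esam(hi) than in Esam(lo) control cells. Uqcrfs1, the Rieske iron-sulfur protein that hands on the electron, read 7.21, 7.37 and 7.37, close to background on the Esam(hi) array. Uqcr10 read 7.63 and Uqcr11 read 7.96 on all 3 arrays, and the other probe set of Uqcr11 differed between the controls by -0.37.

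Complex IV, cytochrome c oxidase, reduces oxygen. Its catalytic subunits are mitochondrially encoded, and the nuclear ones surround them. All 11 ubiquitous nuclear subunits were lower in Esam(hi) cells, with a median of -0.79, or -0.29 relative to like level. Of these, 2 (18.2%) were at least 2-fold lower, against 11.0% of all genes. Cox6c read 10.48, 11.67 and 11.91, a 2.28-fold difference between the controls, and Cox7b read 10.09, 11.26 and 11.33, a 2.25-fold difference. Cox4i1, the first nuclear subunit in the order of assembly beside Cox5a, read 9.02, 9.82 and 9.63. Cox5a read 8.89, 9.29 and 9.27 and was 0.15 above the median of its neighbours. Cox7a2l, known for its part in joining complexes III and IV into supercomplexes, read 8.61, 8.78 and 8.75. Its difference of -0.17 was 0.30 above its neighbours, and it took the other sign (0.31) once the level trend was removed, as did that of Cox5a (0.13). The second probe set of Cox7a2l read 6.54, below background, in Esam(hi) cells and differed between the controls by -0.65.

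Several subunits of complex IV have isoforms for certain tissues, such as heart, muscle, lung or testis, and most of these were not above background. Of 8 tissue isoforms, 6 were not above background on any array (Cox6b2, Cox7a1, Cox7b2, Cox8b, Cox8c and, of the Ndufa4 pair, Ndufa4l2), while their ubiquitous partners Cox6b1, Cox7a2, Cox7b, Cox8a and Ndufa4 were above background on at least 2. Cox6b1 read 9.56, 10.36 and 10.28, and Cox8a read 10.24, 10.77 and 10.79. Cox7a2 read 7.50, 8.39 and 8.45, and Ndufa4 read 7.09, just under background, then 7.81 and 7.81. Among respiratory chain genes above background, the remaining pair of isoforms were the only ones more than 0.2 higher in Esam(hi) than in Esam(lo) control cells. Cox6a2, the heart and skeletal muscle form of subunit VIa, read 8.60 in Esam(hi) and 7.95 in Esam(lo) control cells, and 8.72 on the RBPJ-null array. The control Esam(lo) array was the low one of the 3, by 1.57-fold against control Esam(hi) and by 1.71-fold against RBPJ-null. Its ubiquitous partner Cox6a1 read 8.68, 9.53 and 9.45, with the control Esam(hi) array the low one. Cox4i2, the lung form of Cox4, read 7.25, 7.03 and 6.998, just above background on each array.

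Complex V had the lowest median of the 5 complexes: its 17 genes were all above background, with a median of -1.002, or -0.53 relative to like level. Of these, 9 (52.9%) were at least 2-fold lower in Esam(hi) cells, against 11.0% of all genes. The order of the 5 medians was not tested. In the catalytic head, which makes ATP, the 5 genes had a median of -1.002. Atp5b, the catalytic beta subunit, read 10.78, 11.78 and 11.81. Atp5a1, the alpha subunit it alternates with, read 9.72, 10.47 and 10.46, a 1.68-fold difference between the controls. The central stalk genes Atp5c1 (9.62, 10.74 and 10.74) and Atp5d (11.20, 12.29 and 12.30) were 2.17-fold and 2.13-fold lower in Esam(hi) cells.

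The peripheral stalk, which holds the head still against the turning rotor, was the role with the lowest median in complex V. Its 4 genes had a median of -1.28, or -0.75 relative to like level. Atp5h read 9.30, 10.64 and 10.64, Atp5j read 8.78, 10.08 and 10.07, and Atp5pb read 8.19, 9.46 and 9.49. The genes of the c ring, the proton-driven rotor, encode the same mature protein behind different import sequences. All 3 were lower on the Esam(hi) array, with Atp5g1 at 8.89, 9.92 and 9.99 and Atp5g3 at 9.10, 10.21 and 10.23. The second probe sets of Atp5g1, Atp5h and Atp5pb gave smaller differences, of -0.70, -0.996 and -0.67 at their smallest, as did those of Cox7b (-0.87) and Ndufb11 (-0.86).

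The small membrane subunits of complex V divided. Atp5md, needed for dimers of ATP synthase, read 7.98, 9.63 and 9.996, a 3.12-fold difference between the controls. All 3 of its probe sets were lower in Esam(hi) cells, with differences from -1.64 to -1.15. By contrast Atp5l, another dimer subunit, read 9.17 on all 3 arrays, its 6 probe sets differing by -0.12 to 0, and Atp5mpl read 8.65 on all 3. These genes of 1 complex thus differed in whether they were lower on the Esam(hi) array on the deposited values. The median of the 5 membrane genes was -0.05, and its sign hung on the scaling (-0.16 with centred arrays, 0.41 with the level trend removed).

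**Figure D2:**
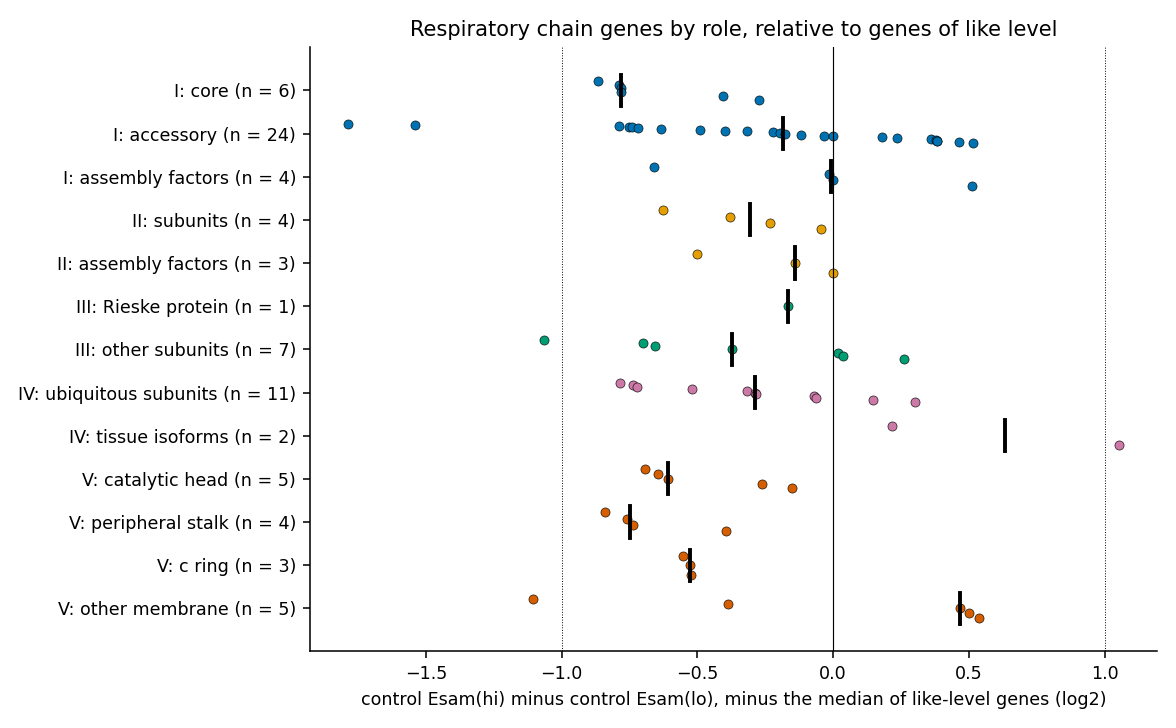
Difference between the control arrays relative to genes of like level (log2, horizontal axis) for the 79 respiratory chain genes, grouped by complex and role; each point is a gene, the black bar the median of the role, and dotted lines mark 2-fold. The complex I core (median -0.78) and the complex V peripheral stalk (median -0.75) have the lowest medians, and the complex IV tissue isoforms and the other membrane subunits of complex V have medians above 0.

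Within Esam(lo) cells, the array labelled RBPJ-null and the control array were close for these genes. Both hold cells of the same gate from different genotypes, and with 1 array each the comparison is between these arrays. Of 79 genes, 23 were lower on the RBPJ-null array, 30 were equal and 26 were higher. Of all 9563 genes, 2859 were lower, 3946 equal and 2758 higher. The median difference, RBPJ-null minus control Esam(lo), was 0.00, and the range ran from -0.27 (Ndufv1) to 0.77 (Cox6a2). At least 2-fold apart were 0 genes in either direction, against 0.188% of 9563 genes lower and 0.0732% higher. In the band of levels from 8.07 to 9.68 those shares were 0.154% and 0.0257% of 3887 other genes. Within 0.1 of each other on both arrays were 65 genes (82.3%), against 74.0% of all genes. Equal values were seen for 38.0% of the members and 41.3% of all genes. Each of the 5 complexes had a median of 0.00.

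The genes furthest apart between the Esam(lo) arrays were few. At least 0.2 apart were 7: Ndufv1 and Sdhaf1 were lower on the RBPJ-null array by 0.27 and 0.24, and Cox6c, Uqcrb, Ndufb6, Atp5md and Cox6a2 were higher by 0.24, 0.27, 0.27, 0.37 and 0.77. Among all genes 10.6% were at least that far apart, so 7 of 79 is near the share of all genes. The 5th and 95th percentiles of the other genes were -0.20 and 0.22. Sdhaf1, an assembly factor for the iron-sulfur subunit of complex II, read 8.27, 8.91 and 8.67, so that the RBPJ-null array lay between the controls. Atp5md and Uqcrb gave the same direction with each of their 3 probe sets, from 0.35 to 0.37 and from 0.27 to 0.28. The second probe set of Cox6c differed by 0.05 only. Cox6a2 has 1 probe set, and no gene of its level was further up on the RBPJ-null array.

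**Figure D3:**
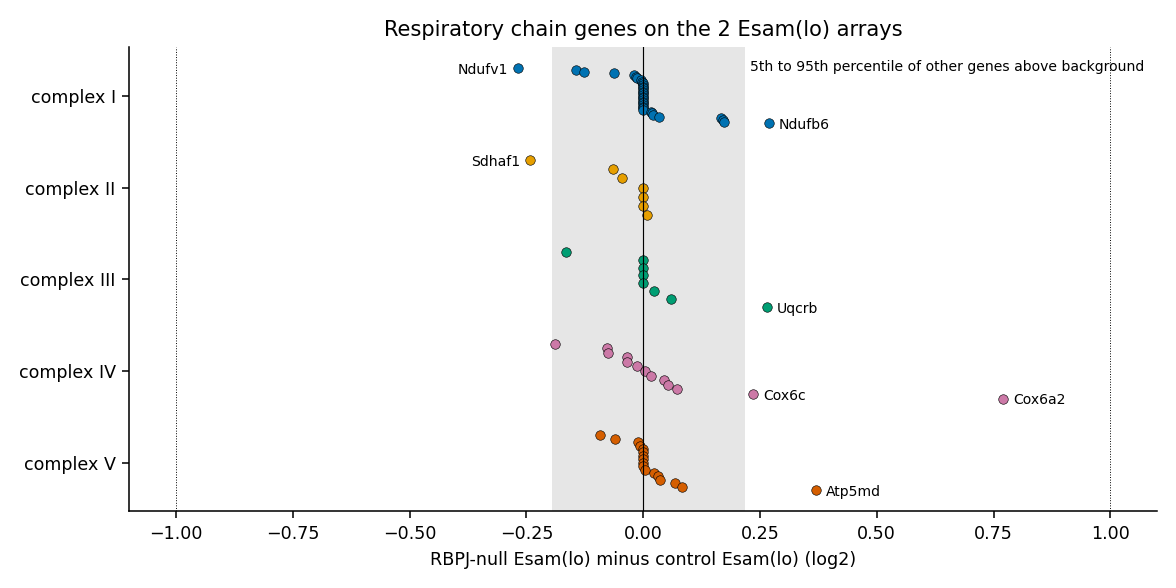
Difference between the Esam(lo) arrays (RBPJ-null minus control, log2, horizontal axis) for the 79 respiratory chain genes, by complex; each point is a gene, the grey band spans the 5th to 95th percentile of the other genes above background (-0.20 to 0.22) and dotted lines mark 2-fold. Points crowd at 0 and 7 named genes lie outside the band, Cox6a2 furthest at 0.77.

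The RBPJ-null Esam(lo) array was also set against the control Esam(hi) array, the population that is known to depend on Notch signalling. This comparison shares one array with each of those above. Of 78 genes, 64 were higher on the RBPJ-null array, 12 were equal and 2 were lower, with a median of 0.72 (RBPJ-null minus control Esam(hi)). Of all 9394 genes, 6400 were higher, 1248 equal and 1746 lower, with a median of 0.30. The measured differences ran from -0.25 (Cox4i2) to 2.01 (Atp5md). At least 2-fold higher were 25 and at least 2-fold lower were 0, against 12.8% and 1.17% of 9394 genes. Relative to genes of like level the median was 0.25, and 5 genes were at least 2-fold higher and 0 lower, against 4.98% and 2.53% of all genes. In the band of levels from 8.09 to 9.69, 11 of 38 respiratory chain genes were at least 2-fold higher, against 16.6% of 3850 other genes, of which 1.01% were at least 2-fold lower. The medians of complexes I to V were 0.69, 0.63, 0.58, 0.61 and 1.03. Ndufb6 was at least 3.31-fold higher on the RBPJ-null array, Atp5md was 4.03-fold higher and Uqcrb was 3.63-fold higher. Ndufv1 was 1.84-fold higher, and Cox6a2 differed by 1.09-fold, a direction that hung on the scaling (from -0.33 to 0.23).

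**Figure D4:**
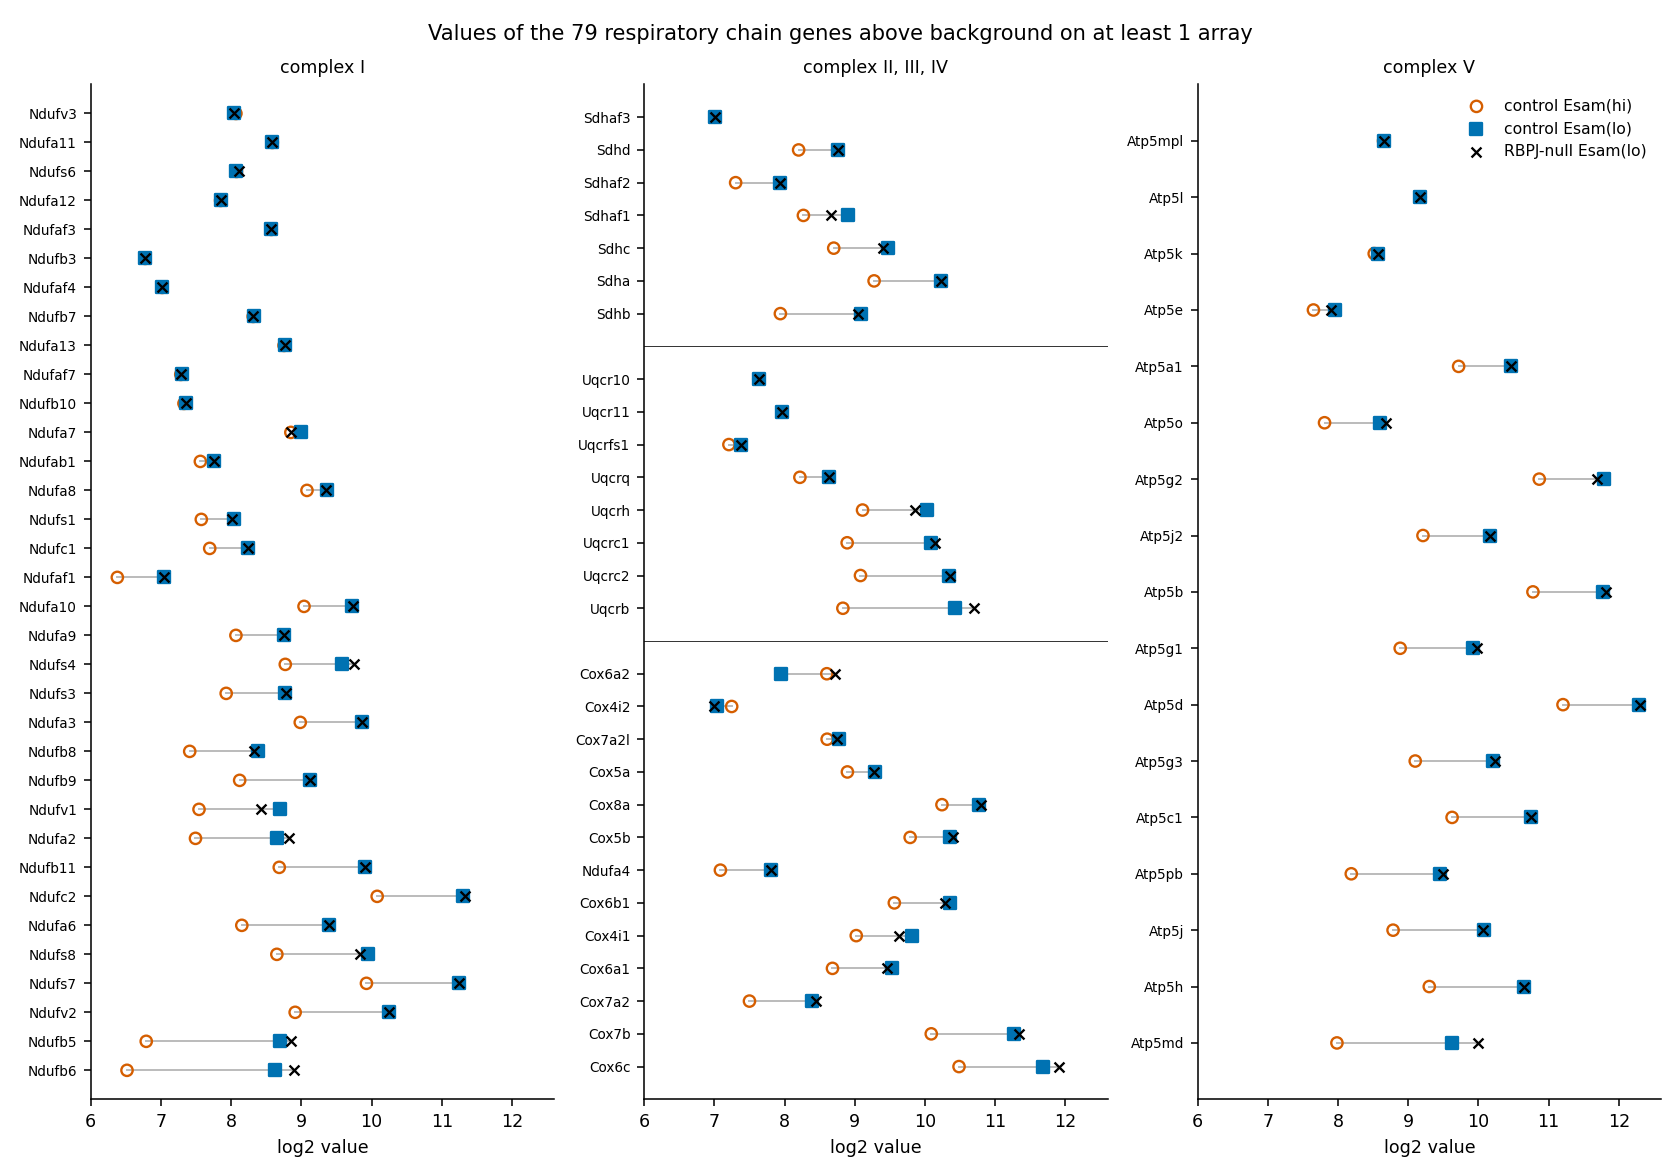
Deposited log2 values (horizontal axis) of the 79 respiratory chain genes above background on at least 1 array, by complex and ordered by the difference between the control arrays; open circles are control Esam(hi), blue squares control Esam(lo) and crosses RBPJ-null Esam(lo), 1 array each. Circles lie left of squares for 65 genes, and crosses lie on or near squares for most, except Cox6a2, where the square is the leftmost of the 3.

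The rest of the oxidative pathway was read from lists of genes outside the symbol rule. The 14 other proteins of the chain and carriers of the inner and outer membrane had a median of -0.75 between the controls, or -0.45 relative to like level. Of these, 5 (35.7%) were at least 2-fold lower in Esam(hi) cells, against 11.0% of all genes. The lowest was Vdac2, an outer membrane channel, at 8.71, 10.17 and 10.34, and the highest was Dhodh, which feeds electrons from pyrimidine synthesis to ubiquinone, at 7.04, 6.93 and 6.93. Cyc1, the cytochrome subunit of complex III, which the symbol rule leaves out, read 7.996, 8.98 and 8.97. The 21 other assembly factors above background had a median of -0.36, with Uqcc2 lowest (7.55, 8.89 and 8.89) and Cox10, of haem a synthesis, equal at 7.87 on the control arrays. Of the mitochondrially encoded subunits 2 were measured by probe sets of their own. COX2, a catalytic subunit of complex IV, read 13.74, 13.59 and 13.59, and ND3, a membrane subunit of complex I, read 13.23, 12.73 and 12.78. Both were higher in Esam(hi) than in Esam(lo) control cells under each scaling tried, by at least 0.04 for COX2 and 0.39 for ND3. On the deposited values they were 0.15 and 0.50 higher, where the nuclear genes of complexes I and IV had medians of -0.67 and -0.72. Relative to like level those medians were -0.25 and -0.28, and they include assembly factors of complex I and isoforms of complex IV. COX2 and ND3 read above the brightest member on each array (11.20, 12.29 and 12.30).

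The TCA cycle feeds the chain with NADH and succinate. Of its 15 genes outside complex II, 14 were lower and 1 higher on the Esam(hi) array, with a median of -0.67, or -0.32 relative to like level. At least 2-fold lower were 3 (20%), against 11.0% of all genes. Fh1, fumarase, was the lowest (7.97, 9.29 and 9.32). Mdh2, malate dehydrogenase, was the highest, at 12.32, 11.93 and 11.47, so that the control Esam(hi) array was the high one and the RBPJ-null array the low one. The 7 genes of ubiquinone synthesis above background had a median of -0.02, from Coq5 (7.29, 7.92 and 8.17) to Coq4 (8.26, 7.74 and 7.72). That median took both signs over the scalings, from -0.13 to 0.21.

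Regulators of mitochondrial biogenesis were mixed. Of 16, 13 were above background, with a median of -0.43, or -0.06 relative to like level. At least 2-fold lower in Esam(hi) cells was 1 (7.69%, against 11.0% of all genes). That was Gabpa, the DNA-binding subunit of GABP, at 7.41, 8.43 and 8.53. Nrf1 read 7.98 on all 3 arrays. Esrra, the estrogen-related receptor alpha, was the highest, at 8.76, 8.47 and 8.39. The coactivators Ppargc1a and Ppargc1b and the mitochondrial DNA factor Tfam were not above background on any array. Cyc1, Nrf1, Ppargc1a, Ppargc1b and Tfam are named for their roles, outside the rule for naming genes.

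Genes of other large protein machines were mostly lower in Esam(hi) control cells as well. The proteasome list was taken by symbol (Psma to Psmg with a number), and so it also holds Psmc3ip and Psme3ip1. Its 45 genes above background had a median of -0.73, or -0.27 relative to like level, and 13 were at least 2-fold lower. Psma6 was lowest (7.58, 9.51 and 9.68) and Psma3 highest (10.19, 10.19 and 10.19). The 65 genes of the mitochondrial ribosome had a median of -0.44, or -0.27 relative to like level, and 5 were at least 2-fold lower, from Mrpl23 (7.48, 9.18 and 9.17) to Mrps10 (7.54, 7.06 and 7.07). The 51 genes of the cytosolic ribosome had a median of -0.56, or -0.15 relative to like level, and 3 were at least 2-fold lower, from Rps27l (7.86, 9.54 and 9.54) to Rpl29 (10.95 on all 3). The shares at least 2-fold lower were 28.9% for the proteasome, 7.69% for the mitochondrial ribosome and 5.88% for the cytosolic ribosome. Among all genes that share was 11.0%, so both ribosome shares lie below it. The difference between these machines and the respiratory chain was not tested.

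**Figure D5:**
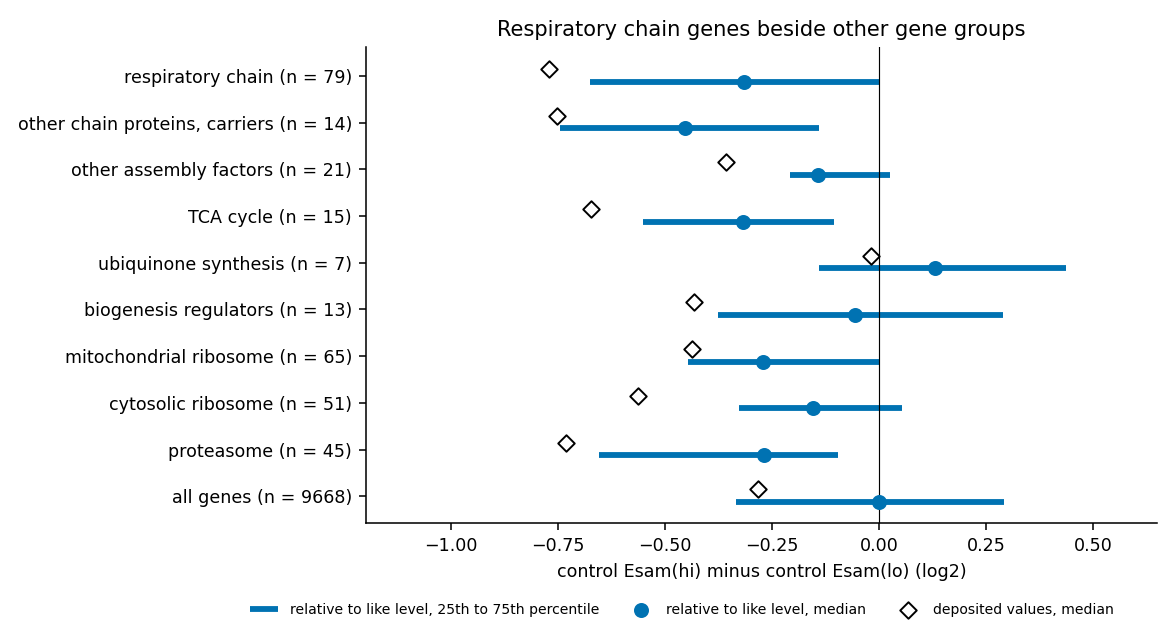
Median difference between the control arrays (Esam(hi) minus Esam(lo), log2, horizontal axis) of the respiratory chain genes and of other gene groups; open diamonds are medians of the deposited differences, blue points medians relative to genes of like level, and bars run from the 25th to the 75th percentile of the latter over genes. The respiratory chain stands at -0.77 and -0.32, the proteasome at -0.73 and -0.27, and ubiquinone synthesis near 0 on the deposited values.

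Markers of monocytes, macrophages and division were mostly lower in Esam(hi) than in Esam(lo) control cells, while those of other cells were mixed or partly below background. All 10 monocyte genes measured (among them Lyz2, Ccr2, Csf1r and Fn1) were lower in Esam(hi) cells, though Nr4a1 differed by -0.002 only. Their mean levels were 8.08, 10.72 and 10.60 over the 3 groups, and 6, 10 and 10 of them were above background. All 11 cell cycle genes measured were lower in Esam(hi) cells too, with means of 8.49, 9.29 and 9.40. Of 10 neutrophil genes, 7 were lower and 3 higher, with means of 9.18, 9.83 and 10.01. Of 10 macrophage genes, 7 were above background and all 7 were lower in Esam(hi) cells, with a median of -0.60 between the controls. C1qb (7.42, 9.06 and 9.06) and Cd68 (10.56, 11.83 and 11.73) were at least 2-fold lower, and Mertk, Cd163 and Marco were not above background on any array. The whole list had means of 7.48, 7.94 and 7.89. Of 6 NK cell genes, Klrd1 (9.46, 10.60 and 10.60) and Klrk1 (6.56, 8.74 and 8.60) were above background and lower in Esam(hi) cells, while Ncr1, Klrb1c, Eomes and Gzma were above background on no array. Of 5 B cell genes, Cd79b read 8.20, 9.12 and 9.29 and Blk read 7.59, 6.60 and 6.60, while Cd79a, Ms4a1 and Pax5 were above background on no array. Of 4 T cell genes, Cd3e (7.65, 7.64 and 7.65) and Cd5 (8.80, 8.77 and 8.77) were above background, and Cd3d and Cd3g on no array. The erythroid genes Alas2 and Epb42 were above background on no array. The part of these genes in the respiratory chain result was not tested.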

How the data were processed

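RNA of sorted spleen dendritic cells was hybridised to Affymetrix Mouse Gene 1.0 ST arrays, 1 array per group. Per the submitters' processing notes, the authors deposited log2 values made by RMA in Affymetrix Expression Console, with a release not given in the sources used here. In general RMA subtracts background, normalizes arrays that are run together and summarises the probes of a probe set. Whether these 3 arrays were run together is not known. Their deposited distributions differ (medians 6.67, 6.55 and 6.56 over all probe sets), and the origin of values equal on several arrays was not tested. Of 35556 probe sets, 21789 had 1 gene symbol in the platform annotation, 1621 had several and 12146 had none. Only those with 1 symbol were used, and of 18 respiratory chain genes with several probe sets the one with the highest mean was taken.

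No test was made, since each group has 1 array. Differences of the deposited log2 values were computed with python 3.11.15, numpy 2.4.6 and pandas 2.3.3, the level trend with statsmodels, and the like-level step was tested on simulated data. The rule for naming genes took, in each comparison, every respiratory chain gene at least 2-fold apart, the 2 lowest and 2 highest of each complex relative to like level, 10 core subunits, the complex IV isoforms with their partners, genes above background on no array, genes whose probe sets had opposite signs (none were found) and the lowest and highest of each outside list. Genes outside it are named as such or as examples of a list. Ndufb1, Ndufb4, Ndufaf8 and Cox7c have no probe set of their own under the rule and are not in the counts. The members and lists were chosen with earlier results of these data known. Alternatives covered the filter on dim genes, the scaling, the level trend, the choice of probe set, the threshold and the like-level genes. RefSeq lists 19 pseudogenes with symbols of these families, whose near-identical sequence probes can share.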

Additional observations from a re-analysis of the deposited data

How the results depend on the processing

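The scaling between the arrays set how many respiratory chain genes passed 2-fold, and it did not turn the direction of the median of all members in either comparison with Esam(hi) cells. Between the controls the count at least 2-fold lower in Esam(hi) cells went from 26 to 11 with quantile normalization of the 3 arrays and to 4 with the lowess trend on level removed, and all 11 and all 4 were among the 26. The share of all genes went from 11.0% to 6.73% and 3.88%. The median difference went from -0.77 to -0.49 and -0.28 under these settings, while the median of all genes went from -0.28 to -0.10 and 0.01. With the trend removed 1 gene was at least 2-fold higher. At a threshold of 1.5-fold, 47 genes were lower and 1 higher, against 30.5% and 4.19% of all genes. Between RBPJ-null Esam(lo) and control Esam(hi) the count at least 2-fold higher went from 25 to 9 with quantile normalization, 4 with the trend removed and 47 at 1.5-fold, and the median from 0.72 to 0.45 and 0.23. The matching shares of all genes were 12.8%, 7.65%, 4.95% and 32.1%. Between the Esam(lo) arrays 1 gene was higher at 1.5-fold, against 0.387% of all genes. The cause of these shifts was not tested beyond the settings themselves. The median relative to like level kept its sign between the controls under every setting run, from -0.40 to -0.22. The remaining 110 values of the comparisons over all members stayed within 1.5 times of the main count or near the main median. With 1 array per group no replicate could be left out, and dim genes such as Uqcrfs1 are limited by their closeness to background. No paired analysis was possible because each group has 1 array. The settings that floored values at background, left out exact ties or kept only genes with 1 probe set were chosen after seeing the data.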

Other observations

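Probe sets shared by several genes were kept out of the counts, and 6 of them name a respiratory chain gene. The 3 probe sets shared by Cox7c and Gm12338 read 10.96, 11.05 and 11.10 on the control Esam(hi) array, 11.69, 11.79 and 11.83 on the control Esam(lo) array and 11.83, 11.96 and 11.98 on the RBPJ-null array. Cox7c is a small subunit of complex IV, and Gm12338 is a gene model with which it shares probes. The 2 probe sets shared by Ndufb4 and Ndufb4b, for a membrane-arm subunit of complex I, read 8.50 and 8.73, then 9.97 and 10.22, then 10.05 and 10.31 on the same arrays. Each of these 5 was lowest on the control Esam(hi) array. The probe set shared by Ndufs5 and Ndufs5-ps read 5.35 on all 3 arrays, below background.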
